A study of Mus musculus with 12 samples.

Results

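The response of the colon to azoxymethane and dextran sulfate sodium (AOM/DSS) was described in mice that swam. The members are all colorectal RNA-seq libraries of swimming mice, chosen by group label, 6 of the 12 libraries in the series. The 3 Model_Swim mice received AOM/DSS and swam, and the 3 Ctrl_Swim mice swam without AOM/DSS. All were male C57BL/6 mice bought at 4 weeks of age. Both groups swam for up to 90 min a day, beginning before the carcinogen was given, so swimming is shared by the groups and is not itself compared here. Model_Swim mice were given AOM, a colon carcinogen that alkylates DNA, once by intraperitoneal injection at 10 mg/kg. They then drank 2% DSS, a sulfated polysaccharide that injures the colonic epithelium, for 7 days in each of 3 cycles separated by plain water. The other 6 libraries came from sedentary mice, 3 with AOM/DSS (Model) and 3 without (Ctrl), and are used only for comparison. The libraries were made from resected colorectal tissue, so each value is a mixture of epithelium, stroma, muscle and immune cells, and tumor and adjacent mucosa were not separated in the labels. The question this comparison answers is which genes differed with AOM/DSS when every mouse had swum.

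In this model a mutagen and repeated cycles of chemical colitis together give tumors through activated Wnt signalling in crypts, on a background of ulceration and repair. Neutrophils and monocytes enter the injured mucosa, drawn by chemokines of the CXC family and by interleukin-1. Stromal cells lay down and cut matrix, surviving epithelium takes on a repair program with fetal-like genes, and absorptive functions with their mitochondrial genes decline.

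Total counts were 18115201 to 18687803 in the 6 swimming mice and 17256953 to 19451055 over the series, so that 3 counts, the limit of detection used here, stood for 0.161 to 0.166 CPM, the count scaled to library size, in the swimmers. All 6 libraries held the colon markers Cdx2, Vil1, Krt20, Muc2, Car1 and Epcam, with Cdx2 at 215 to 291 CPM and Muc2 at 6659 to 9216 CPM. RNA of neighbouring tissues varied between mice. The 27 listed squamous epithelium genes together reached 1723 to 2791 CPM in Ctrl_Swim and 2472 to 3960 CPM in Model_Swim, and Krt5, a keratin of that epithelium, was at 0.638 to 93.9 CPM and 28.2 to 281 CPM. Of these 27 genes none passed the cutoffs for the comparison, and with their mean level as a covariate 154 genes were called in all, 114 of them shared with the 155 described below. The pancreatic enzyme genes Pnlip, Cela2a, Cela3b, Ctrb1, Cpa1, Prss2 and Try4 were at no more than 0.66 CPM in 5 of the 6 mice and at 0.904 to 4.79 CPM in Ctrl_Swim 3. The whole list of 26 pancreatic genes summed to 1401, 1375 and 832 CPM in Ctrl_Swim and to 1888, 2004 and 1469 CPM in Model_Swim. The sum was higher in every treated mouse, but only 4 of the 20 genes tested had a higher mean in Model_Swim. The median log2 fold change of these 20 genes was −1.13, and none was called. The summed skeletal muscle genes overlapped between groups, at 50.2 to 586 CPM in Ctrl_Swim and 36.3 to 402 CPM in Model_Swim. In contrast, the sedentary mice Model 1 and Model 3 held pancreatic genes at 56712 and 28451 CPM in sum, against at most 2249 CPM in every other library, which touches each sedentary value given below.

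Of 15484 genes tested, 155 (1%) differed between Model_Swim and Ctrl_Swim at an adjusted p under 0.05 with a change of more than 2-fold, the cutoffs called here. Of them, 143 (0.924%) were higher in Model_Swim and 12 (0.0775%) were lower. In the plot of all genes tested, the called genes lie almost entirely on the side of higher expression. Without the fold requirement 540 genes (3.49%) were higher, with a median log2 fold change of 0.65, and 262 (1.69%) were lower, with a median of −0.39. The lower genes were therefore mostly changes of small size. These shares of all genes are the background for each count of called, higher or lower list members below. Among the 143 higher genes the median log2 fold change was 1.60, 47 exceeded 4-fold and 27 exceeded 8-fold. The 3 and 3 mice did not overlap for any of the 155 genes, while 32.4% of all genes tested were free of overlap. When only the 6 swimming mice were fitted, 272 genes passed, 240 higher and 32 lower, and 139 of the 155 were among them. In the text below ± after a CPM mean is the SD over 3 mice and ± after a log2 fold change is its SE, CPM values in a row are given in the order Ctrl_Swim 2, 3, 4 and Model_Swim 1, 2, 3, and "rose" or "fell" is kept for genes with an adjusted p under 0.05. Genes described as rising or falling below 2-fold, and several that did not pass, were chosen after their values were seen.

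**Figure D1:**
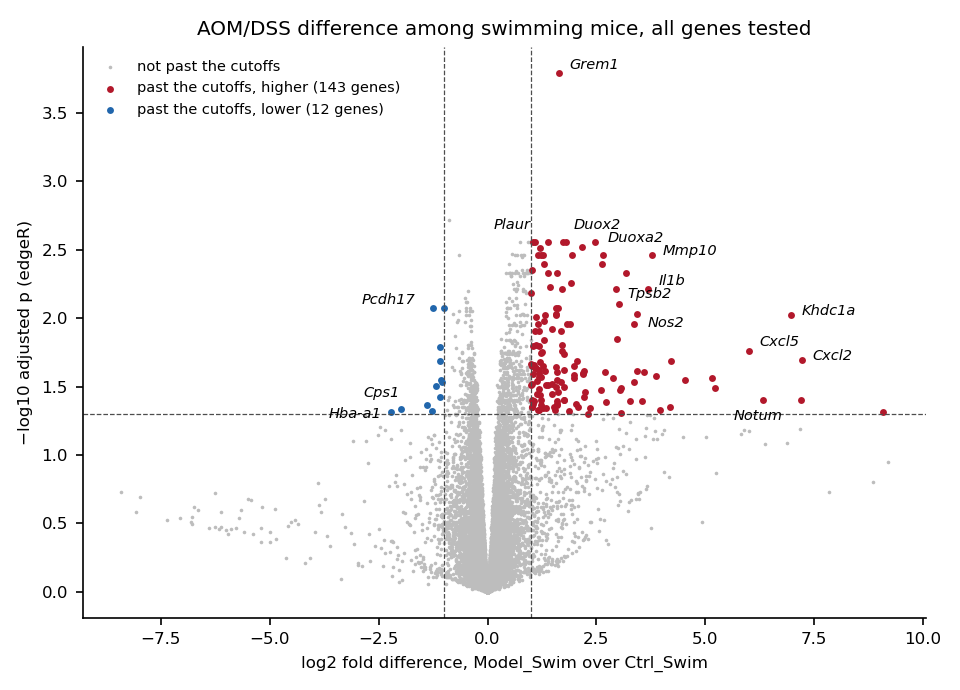
Each point is a gene, with the log2 fold difference between Model_Swim and Ctrl_Swim on the horizontal axis and −log10 of the edgeR adjusted p on the vertical axis, and dashed lines mark the cutoffs. The 143 higher genes outnumber the 12 lower genes, and Grem1 has the smallest adjusted p.

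Chemokines and interleukin-1 genes that recruit and activate neutrophils were among the largest increases. Cxcl5, a neutrophil-attracting chemokine at chr5:90759298-90761625 (GRCm38.p6), stood at 0.329, 0.106 and 0.971 CPM in Ctrl_Swim and at 9.08, 48.4 and 35.0 CPM in Model_Swim. Every Model_Swim mouse was above every control, with the first of them clearly below the other two, and the log2 fold change was 6.0 ± 1.11 (adjusted p = 0.0172). Cxcl2, which acts on the same receptor, had 1 count in the 3 Ctrl_Swim libraries together and 205 in the 3 Model_Swim libraries, a depth-corrected ratio of 209 with a 95% counting interval of 37.2 to 8312. Its adjusted p was 0.0201. Ccl8, a monocyte-attracting chemokine, rose from 10.1 ± 0.97 to 21.9 ± 2.96 CPM. Of 23 listed chemokines tested, 3 were called higher and none lower (0.924% and 0.0775% of all genes). The median log2 fold change was 0.30, against −0.01 over all genes. Cxcl16 also rose, by less than 2-fold, whereas the abundant Ccl6 and Ccl28 were lower without overlap but did not pass the test, at −0.30 ± 0.12 (adjusted p = 0.164) and −0.31 ± 0.08 (adjusted p = 0.0502) on the log2 scale.

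Il1b, which encodes the cytokine interleukin-1β (chr2:129364569-129371164), was expressed at 0.931, 1.22 and 1.28 CPM in Ctrl_Swim and at 7.71, 15.3 and 21.5 CPM in Model_Swim. The groups were well separated and the Model_Swim mice differed among themselves by more than the controls did. The log2 fold change was 3.69 ± 0.53 (adjusted p = 0.00609), and the call was kept when any of the 6 mice was left out. Il1a and Tnf rose as well, by 3.28 ± 0.79 and 2.18 ± 0.45 on the log2 scale. Nos2, the inducible nitric oxide synthase, was at 1.97, 3.35 and 5.83 CPM and at 24.2, 47.3 and 49.7 CPM, so that its lowest treated mouse was above the highest control. Its log2 fold change was 3.43 ± 0.55 (adjusted p = 0.00938). Of 19 listed cytokines and partners tested, 4 were called higher (0.924% of all genes). A higher mean in Model_Swim was seen for 18, and the median log2 fold change was 1.27. Tnfaip3, an inhibitor of NF-κB signalling, rose from 32.1 ± 0.63 to 53.7 ± 0.20 CPM, below 2-fold. Il1rn, the secreted receptor antagonist of interleukin-1, was 34.5 ± 5.25 and 66.7 ± 14.6 CPM and did not pass (adjusted p = 0.0569).

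Of 18 neutrophil genes tested, 4 were called higher (0.924% of all genes), and the treated swimmers differed widely. Csf3r, the receptor for granulocyte colony-stimulating factor, was at 2.68, 2.71 and 3.58 CPM and at 5.94, 10.2 and 13.5 CPM, without overlap and with a log2 fold change of 1.72 ± 0.32 (adjusted p = 0.0173). Lcn2, the iron-siderophore binding protein lipocalin 2, Il1r2, a decoy receptor, and Clec4d, a C-type lectin receptor, were the other called members. In bulk tissue more cells of a type and more RNA per cell cannot be told apart. Of the 18 genes tested 17 had a higher mean in Model_Swim, and the median log2 fold change was 1.93. The summed level of the 22 listed genes was 58.5, 101 and 114 CPM in Ctrl_Swim and 189, 764 and 624 CPM in Model_Swim. Much of the spread of this sum within Model_Swim came from 1 member, Ltf, given below. The calprotectin gene S100a8, named after its values were seen, was also lowest in the first mouse of Model_Swim. It was at 0.110, 0.532 and 2.45 CPM against 1.38, 7.67 and 29.6 CPM, overlapped between groups and did not pass (adjusted p = 0.104). Ltf, which encodes lactoferrin, was at 17.3, 547 and 247 CPM in Model_Swim and at most 10.8 CPM in Ctrl_Swim, and likewise did not pass (adjusted p = 0.0658). The count of called neutrophil genes was 0 or 1 when Ctrl_Swim 2, Ctrl_Swim 3, Model_Swim 2 or Model_Swim 3 was left out, 2 without Ctrl_Swim 4, and 7 when only the 6 swimmers were fitted.

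Of 22 macrophage and monocyte genes tested, 10 rose and 3 of these passed the 2-fold cutoff (3.49% and 0.924% of all genes). The median log2 fold change was 0.74, with a range of −0.15 to 3.40. Cd68, a lysosomal glycoprotein of macrophages, was at 10.3, 10.2 and 14.2 CPM in Ctrl_Swim and at 28.7, 25.2 and 26.7 CPM in Model_Swim. The treated mice were close to each other and the log2 fold change was 1.22 ± 0.14 (adjusted p = 0.00307). Gpnmb, a glycoprotein of lipid-laden macrophages, rose from 17.6 ± 3.80 to 79.0 ± 17.1 CPM, with a log2 fold change of 2.16 ± 0.24 (adjusted p = 0.003). Both calls were kept with any of the 6 mice left out. The F4/80 gene Adgre1, Lyz2, Mrc1 and the complement genes C1qb and C1qc rose by less than 2-fold. Clec7a, the receptor for fungal β-glucan, and Nlrp3, the inflammasome sensor that leads to interleukin-1 release, also rose and are named after their values were seen, with log2 fold changes of 1.17 ± 0.14 and 1.99 ± 0.43.

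Mast cell proteases were higher in every treated swimmer. Mcpt1, a chymase of mucosal mast cells (chr14:56017964-56020391), was at 5.53, 1.76 and 2.96 CPM in Ctrl_Swim and at 18.4, 36.9 and 64.3 CPM in Model_Swim. The groups were apart and the treated mice spread over more than a 3-fold range, with a log2 fold change of 3.55 ± 0.86 (adjusted p = 0.0402). The call of Tpsb2, a tryptase, was kept with any of the 6 mice left out. It was at 0.164, 0.745 and 0.409 CPM against 2.81, 3.21 and 4.77 CPM, a log2 fold change of 3.01 ± 0.46 (adjusted p = 0.0079). Cma1, a chymase, rose by 2.2 ± 0.46 on the log2 scale. Mcpt2 was 3.73 ± 0.97 higher on that scale but just missed the threshold (adjusted p = 0.0508). Of 11 mast cell and eosinophil genes tested, 3 were called higher and the median log2 fold change was 1.72, while Kit, which pacemaker cells of the gut also express, was at 104 ± 6.41 and 92.5 ± 12.1 CPM. A single called gene was left when Ctrl_Swim 2, Ctrl_Swim 4 or any Model_Swim mouse was left out. Among sedentary mice Mcpt1 was at 40.1, 5.29 and 22.7 CPM in Ctrl and at 58, 18.9 and 10.1 CPM in Model, which overlapped (adjusted p = 0.74), and the interaction for Mcpt1 was 3.19 ± 1.12 on the log2 scale (adjusted p = 0.17).

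**Figure D2:**
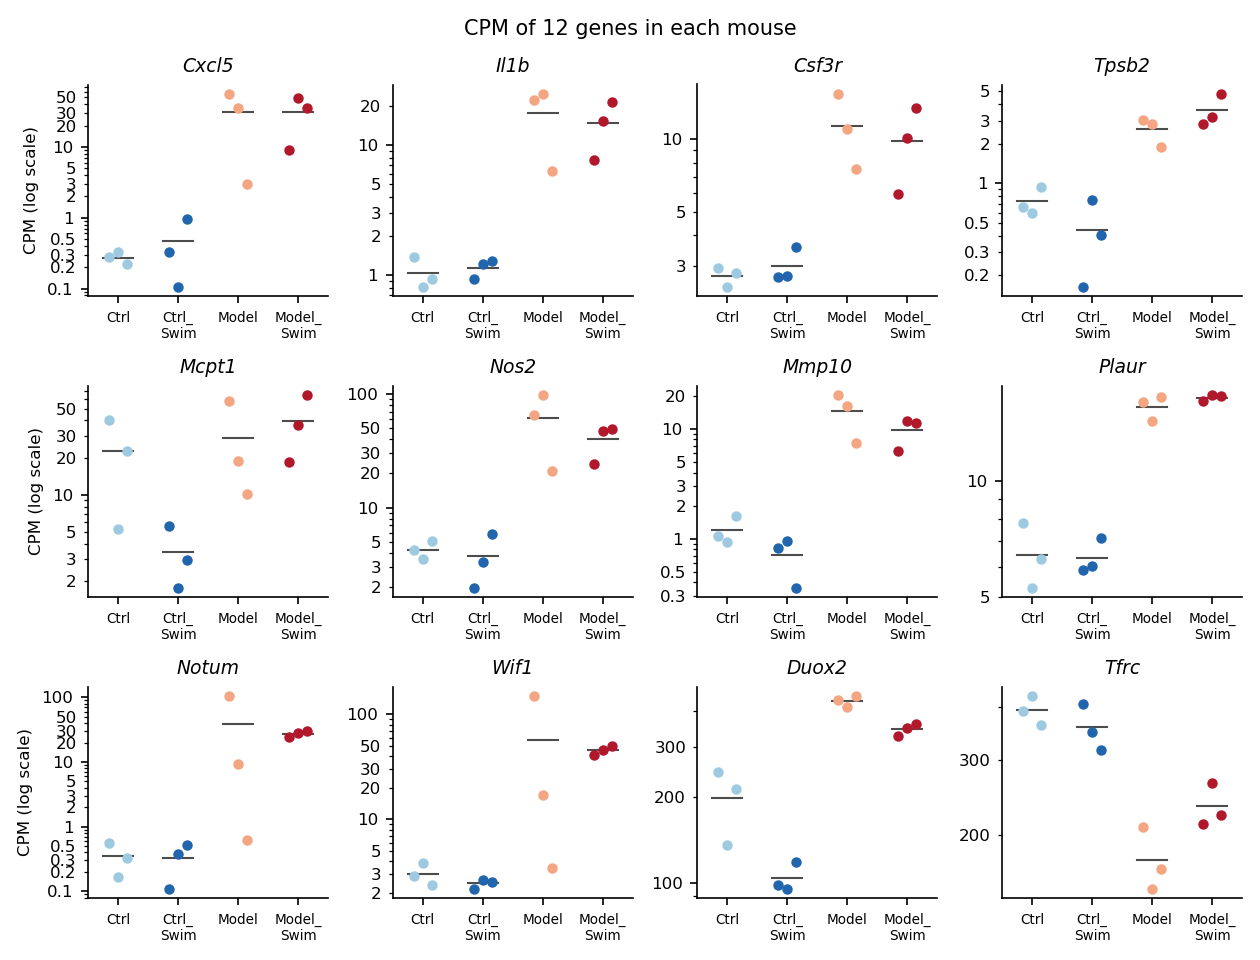
CPM of 12 genes on log scales, with a point for each of the 12 mice and a line at each group mean. For 11 genes all 3 Model_Swim mice are above all 3 Ctrl_Swim mice, and for Tfrc they are below. Notum and Wif1 are close together in Model_Swim and spread widely in Model.

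Notum and Wif1, which encode secreted antagonists of Wnt, were among the largest increases. Notum, an enzyme that inactivates Wnt proteins by removing their lipid (chr11:120653788-120661193), was at 0.110, 0.372 and 0.511 CPM in Ctrl_Swim and at 24.2, 27.8 and 29.7 CPM in Model_Swim. Wif1, a Wnt-binding inhibitor, was at 2.19, 2.66 and 2.56 CPM and at 40.9, 45.8 and 49.7 CPM. Both genes were thus near a common level in all 3 treated swimmers and far above all controls. The log2 fold changes were 6.32 ± 1.5 for Notum (adjusted p = 0.0394) and 4.20 ± 1.05 for Wif1 (adjusted p = 0.0444). Sedentary Model mice, which enter the same fit, were at 104, 9.21 and 0.631 CPM for Notum and at 149.5, 17.2 and 3.44 CPM for Wif1. Fitted on the 6 swimming mice alone the adjusted p values were 0.000125 for Notum and 7.8e-06 for Wif1. Of 23 Wnt target and crypt genes tested, 2 were called higher, 21 had a higher mean, 17 were higher without overlap (background 15.9% of all genes) and the median log2 fold change was 0.48. Sox9, a crypt transcription factor, rose below 2-fold, from 50.6 ± 6.0 to 82.0 ± 11.4 CPM. Members of this list that did not pass included Axin2, at 44.0, 49.2 and 47.6 CPM against 78.0, 81.4 and 75.4 CPM (adjusted p = 0.258), and the homeobox gene Prox1, at 11.7, 10.3 and 11.4 CPM against 62.4, 68.3 and 61.8 CPM (adjusted p = 0.0897), both named after their values were seen. The number of called genes in this list ranged from 0 to 6 over the alternatives, with 6 when only the 6 swimmers were fitted and 0 when any of the 6 was left out of the fit of 12 mice. Of 20 proliferation genes tested none was called, the median log2 fold change was −0.00, and Mki67 was at 243 ± 51.3 CPM in Ctrl_Swim and 242 ± 17 CPM in Model_Swim.

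Of 23 listed genes of fetal-like repair and tumor epithelium, 7 rose and 6 of these were called, with a median log2 fold change of 1.09. Plaur, the urokinase receptor, was at 5.86, 6.01 and 7.10 CPM and at 16.1, 16.8 and 16.6 CPM. Its log2 fold change was 1.38 ± 0.15 (adjusted p = 0.00277). Ereg and Areg, ligands of the epidermal growth factor receptor, rose from 6.82 ± 0.58 to 18.4 ± 3.86 CPM and from 8.22 ± 2.12 to 22.9 ± 4.31 CPM. Cldn4, a tight junction claudin, was at 37.3, 13.1 and 17.8 CPM and at 106, 108 and 102 CPM, the treated mice being nearly equal. Ly6a, a surface protein of fetal-like epithelium, rose from 121 ± 26.2 to 244 ± 32.9 CPM. All 23 had a higher mean in Model_Swim, 16 of them without overlap, where 15.9% of all genes tested were higher without overlap. The called members numbered 3 without Ctrl_Swim 3, without Model_Swim 2 and without Model_Swim 3. Several members that did not pass are also expressed by squamous epithelium, among them Anxa1, at 113, 113 and 139 CPM against 147, 429 and 384 CPM (adjusted p = 0.0986), and the squamous markers described above were lowest in the first Model_Swim mouse of that group as well.

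Of 18 listed Reg and Paneth-type antimicrobial genes tested, 3 were called higher, namely Duox2, Duoxa2 and Mmp7, with a median log2 fold change of 0.57 and a range of −2.16 to 3.97. Duox2, an oxidase that releases hydrogen peroxide at the epithelial surface, was at 98.6, 95.5 and 119 CPM in Ctrl_Swim and at 327, 350 and 360 CPM in Model_Swim. Its maturation factor Duoxa2, which lies beside it on chromosome 2, was at 10.5, 8.19 and 13.6 CPM and at 56.6, 62.8 and 59.3 CPM. In both genes the mice of a group were close and the groups far apart, with log2 fold changes of 1.73 ± 0.18 and 2.46 ± 0.27 (adjusted p = 0.00277 for each). The abundant members of the list did not pass, with log2 fold changes of 1.07 ± 0.54 for Ang4 (adjusted p = 0.277), −0.48 ± 0.42 for Reg4 (adjusted p = 0.548) and −0.72 ± 0.93 for Mptx1 (adjusted p = 0.7), and 6 members were higher and 3 lower without overlap (15.9% and 16.5% of all genes). Muc1, a membrane mucin, rose from 2.72 ± 1.24 to 10.9 ± 1.16 CPM, and Muc13 rose below 2-fold from 1362 ± 34.2 to 2189 ± 41.2 CPM. The main secreted mucin Muc2 was at 7600 ± 598 and 7578 ± 1422 CPM, a log2 fold change of −0.00 ± 0.32. Of 18 goblet cell genes 3 rose, with 1 of these called, and 1 fell, and the median log2 fold change was 0.25. Without overlap 7 were higher and 1 lower (15.9% and 16.5% of all genes). The abundant Fcgbp and Clca1 were at 3354 ± 806 and 3141 ± 1118 CPM in Ctrl_Swim. In Model_Swim they were at 6734 ± 2148 and 6581 ± 3193 CPM and did not pass (adjusted p = 0.145 and 0.217). Clca4b, a member of the chloride channel accessory family, was at 14.6, 17.1 and 16.4 CPM and at 197, 344 and 358 CPM, a log2 fold change of 4.22 ± 0.82 (adjusted p = 0.0206). Among junction genes Cldn23, Ocln and Tjp1 rose by less than 2-fold, by 0.69, 0.30 and 0.34 on the log2 scale.

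Matrix metalloproteinases and their inhibitors had the largest share of called genes of the 40 lists, 6 of 20. Mmp3 (stromelysin 1), Mmp10 (stromelysin 2) and Mmp7 (matrilysin) lie on chromosome 9 at chr9:7445822-7455975, chr9:7502342-7510242 and chr9:7692090-7699585. Mmp10 was at 0.822, 0.958 and 0.358 CPM in Ctrl_Swim and at 6.27, 11.9 and 11.2 CPM in Model_Swim. Mmp3 was at 0.986, 1.38 and 2.30 CPM and at 5.83, 18.4 and 12 CPM. Mmp7 was at 2.63, 3.51 and 5.72 CPM and at 48.7, 53.4 and 85.1 CPM. In each of the 3 genes the lowest treated mouse was the first Model_Swim mouse, and it was still above all controls. The log2 fold changes were 3.77 ± 0.47 for Mmp10 (adjusted p = 0.00342), 2.95 ± 0.43 for Mmp3 (adjusted p = 0.00609) and 3.97 ± 1.01 for Mmp7 (adjusted p = 0.047). The calls of Mmp3 and Mmp10 were kept with any of the 6 mice left out, whereas that of Mmp7 was lost whichever of them was left out, with adjusted p from 0.0983 to 0.151. The called members of the list numbered 2 without Ctrl_Swim 2, Ctrl_Swim 3, Model_Swim 2 or Model_Swim 3 in turn. Timp1, an inhibitor of these enzymes, rose from 1.08 ± 0.34 to 3.31 ± 1.06 CPM, and the proteases Adamts4 and Adam8 rose by 1.99 ± 0.42 and 1.59 ± 0.39 on the log2 scale. Of the 20 genes 9 rose at an adjusted p under 0.05, with a median log2 fold change of 0.66, whereas Timp2 and Timp3, the most abundant inhibitors, were at 170 ± 8.74 and 195 ± 14.1 CPM and at 224 ± 9.50 and 214 ± 18.0 CPM and did not pass.

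The promoters of Mmp3, Mmp10, Mmp7 and Plaur are shown because these called genes share a match to the binding motif of AP-1, the dimer of Fos and Jun proteins, whose own genes are described below. The 250 bases before a RefSeq transcription start are given for each (GRCm38.p6, plus strand, chr9:7445572-7445821, chr9:7502092-7502341, chr9:7691840-7692089 and chr7:24462233-24462482 in that order), with the match in capitals. For each gene the first listed start with a match was used. For Mmp3, Mmp10 and Mmp7 the stretch abuts the gene start. For Plaur it lies inside the gene (chr7:24460937-24475970), before an internal start.
Mmp3: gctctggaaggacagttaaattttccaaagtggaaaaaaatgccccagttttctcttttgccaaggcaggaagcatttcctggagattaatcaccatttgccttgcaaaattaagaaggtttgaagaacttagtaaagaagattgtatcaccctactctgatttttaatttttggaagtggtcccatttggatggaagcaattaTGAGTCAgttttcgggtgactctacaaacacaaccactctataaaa
Mmp10: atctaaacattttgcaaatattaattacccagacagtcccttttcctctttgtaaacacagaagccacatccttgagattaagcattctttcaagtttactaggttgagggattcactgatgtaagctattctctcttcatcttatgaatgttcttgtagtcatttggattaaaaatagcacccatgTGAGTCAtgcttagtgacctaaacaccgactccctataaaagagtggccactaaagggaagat
Mmp7: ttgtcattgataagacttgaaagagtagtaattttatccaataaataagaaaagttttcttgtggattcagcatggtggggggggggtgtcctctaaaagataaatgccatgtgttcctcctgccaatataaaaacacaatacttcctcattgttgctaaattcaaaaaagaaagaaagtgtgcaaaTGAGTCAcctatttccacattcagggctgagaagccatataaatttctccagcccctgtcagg
Plaur: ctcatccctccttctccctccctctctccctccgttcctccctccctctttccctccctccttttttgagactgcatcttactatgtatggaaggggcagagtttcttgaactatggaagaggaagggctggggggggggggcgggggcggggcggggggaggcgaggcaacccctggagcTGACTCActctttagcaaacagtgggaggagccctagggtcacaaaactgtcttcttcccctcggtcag
The letters searched were TGANTCA on both strands, a pattern that the related motif TGACGTCA does not contain. It was present in the 250 bases upstream of 14 of 99 called higher genes with a listed promoter (14.1%), of 6.36% of the 11771 tested genes with a promoter and of 7.82% of all 27025 genes with a promoter. The κB motif of NF-κB was present for 13.1% of the called higher genes and 10.7% of tested genes. The other motifs searched were TGACGTCA (CRE), ATCAAAG (TCF/LEF), CACGTG (E-box) and CArG. In that order 3.03%, 4.04%, 6.06% and 1.01% of the called higher genes had them. Of tested genes 2.86%, 3.0%, 9.18% and 1.44% did. A match of letters is a description and says nothing of whether the factor bound there.

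Of 24 fibroblast and collagen genes, 13 rose and 1 of these was called (3.49% and 0.924% of all genes). The median log2 fold change was 0.48, with a range of −0.52 to 1.29. Col1a1, the main fibrillar collagen chain, was at 164, 205 and 175 CPM in Ctrl_Swim and at 274, 358 and 448 CPM in Model_Swim, a log2 fold change of 0.99 ± 0.18 (adjusted p = 0.0145). The basement membrane gene Col4a2 was at 151, 187 and 166 CPM and at 261, 282 and 296 CPM. Lox, which crosslinks collagen, was the only member of its list above 2-fold, rising from 8.4 ± 1.15 to 20.6 ± 4.64 CPM. Of the 24 genes 23 had a higher mean in Model_Swim. Grem1, a secreted antagonist of bone morphogenetic proteins made by stromal cells, had the smallest adjusted p of all genes and is named for that reason. It was at 20.2, 26.2 and 22.2 CPM and at 62.9, 80.5 and 69.9 CPM, without overlap, and the log2 fold change was 1.63 ± 0.11 (adjusted p = 0.000161). Chrdl2, another such antagonist, Fgf10, a mesenchymal growth factor, and the laminin genes Lama1 and Lama3 rose too, with calls kept when any of the 6 mice was left out, and were likewise named after their values were seen.

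Endothelial adhesion genes rose in single members. Of 16 listed genes 1 was called and 3 were higher at an adjusted p under 0.05 (0.924% and 3.49% of all genes). Selp, which encodes P-selectin, a receptor for rolling leukocytes, was at 2.85, 4.42 and 3.58 CPM and at 10.5, 16.9 and 13.8 CPM, a log2 fold change of 1.92 ± 0.27 (adjusted p = 0.00552). Icam1 rose below 2-fold, from 16.8 ± 3.87 to 27.6 ± 2.57 CPM. Pecam1, a marker of all endothelium, was at 84.8 ± 14.6 and 77.4 ± 1.71 CPM (log2 fold change −0.13 ± 0.10, adjusted p = 0.475).

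Several immediate early genes rose. Egr1, a zinc finger factor, was at 16.1, 12.2 and 20.1 CPM and at 55.9, 40.3 and 47.8 CPM, a log2 fold change of 1.57 ± 0.25 (adjusted p = 0.00938). Dusp1, a phosphatase that switches off MAP kinases, rose from 13.8 ± 2.22 to 33.2 ± 2.55 CPM. Fos was at 48.5, 33.1 and 29.8 CPM and at 107, 83.8 and 90.9 CPM, again without overlap. Among AP-1 genes Fos rose by 1.34 ± 0.34, Jun by 1.00 ± 0.14, Junb by 0.95 ± 0.21 and Atf3 by 1.32 ± 0.27 on the log2 scale. Of 20 genes of the glucocorticoid and immediate early list 4 were called higher, and the glucocorticoid target Fkbp5 was lower without overlap but did not pass, at 159 ± 14.4 and 111 ± 8.42 CPM (adjusted p = 0.326). Hspa1b, a heat shock gene that shares reads with a near-identical copy and is therefore uncertain, was at 74.9, 43.3 and 27.9 CPM in Model_Swim and 16.1 to 21.4 CPM in Ctrl_Swim.

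**Figure D3:**
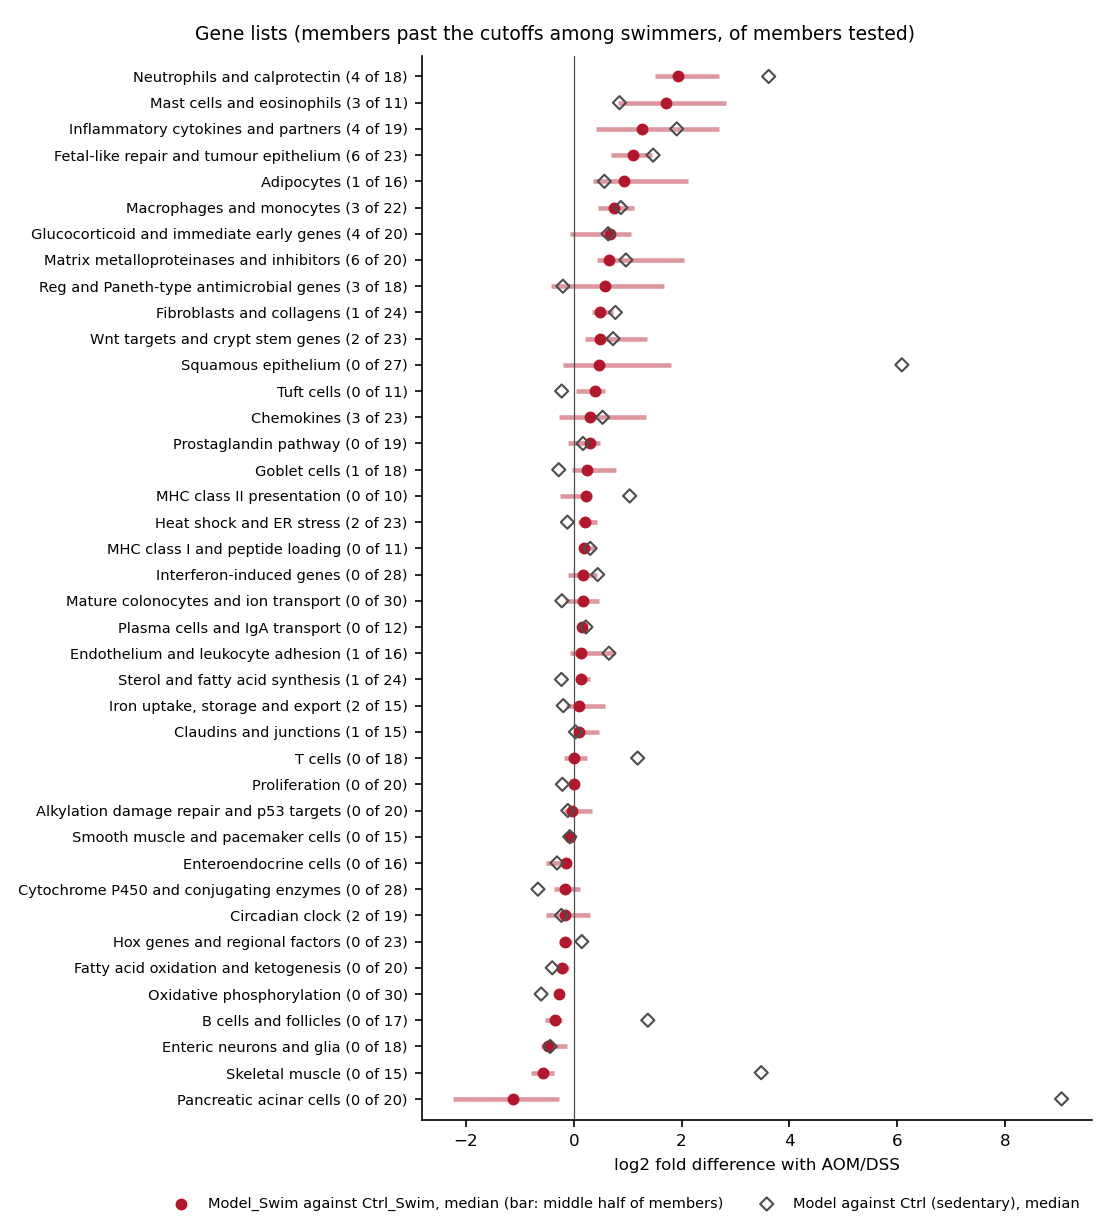
Median log2 fold difference of 40 gene lists among swimmers (filled points, with a bar over the middle of the members, from the lower to the upper quartile) and among sedentary mice (open diamonds), with the number of members past the cutoffs among swimmers and the number tested. Neutrophil, mast cell and cytokine lists have the highest medians among swimmers. B cell, T cell, squamous, skeletal muscle and pancreatic lists have a much higher median in the sedentary comparison. So does the neutrophil list, at 3.62 against 1.93 among swimmers.

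Lymphocyte lists held no called gene. Of 17 B cell and follicle genes none passed the test even without the fold requirement, only 1 had a higher mean in Model_Swim and the median log2 fold change was −0.35. Cd79a, a subunit of the B cell receptor, was at 14.3, 17 and 30.7 CPM in Ctrl_Swim and at 19.3, 17 and 13.9 CPM in Model_Swim, and the highest value belonged to Ctrl_Swim 4. That mouse also held the highest sums of the B cell list, 281 CPM against 107 and 141 CPM in its group, and of the T cell list, 166 CPM against 70.6 and 79.7 CPM. Of 18 T cell genes none passed and the median was 0.01, although Cd4 was at 9.10, 13.3 and 16.7 CPM against 24.4, 23.7 and 19.9 CPM without overlap (adjusted p = 0.0937). No gene passed of 10 MHC class II, 11 MHC class I or 28 interferon-induced genes, with medians of 0.22, 0.19 and 0.18. The class II chain H2-Aa was at 194 ± 48.4 and 232 ± 39.7 CPM. Jchain, the joining chain of secreted immunoglobulin A made by plasma cells, was at 807 ± 69.6 and 873 ± 165 CPM.

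Subunits of oxidative phosphorylation were lower by small amounts in nearly every gene. Of 30 subunits tested, all had a lower mean in Model_Swim, 27 did so without overlap, 9 fell at an adjusted p under 0.05 and none reached 2-fold. The background is 16.5% of all genes lower without overlap and 1.69% lower at that adjusted p. The log2 fold changes ran from −0.50 to −0.09 with a median of −0.27. Ndufb5, a subunit of complex I, was at 127, 108 and 103 CPM and at 76.8, 84.0 and 78.7 CPM, with a log2 fold change of −0.50 ± 0.08 (adjusted p = 0.00942). Atp5b, the catalytic subunit of ATP synthase, was at 2152, 1895 and 1881 CPM and at 1697, 1722 and 1746 CPM and did not pass on its own (adjusted p = 0.138). Ctrl_Swim 2 held the highest sum of these subunits, at 12488 CPM against 10784 and 10729 CPM in its group and 9397 to 9716 CPM in Model_Swim, so the groups did not overlap with or without it. The 30 listed genes of mature colonocytes and ion transport did not share this direction. None was called, 20 had a higher mean in Model_Swim and the median log2 fold change was 0.16. Without overlap 6 of them were higher and 4 lower (15.9% and 16.5% of all genes). Among genes of fatty acid oxidation, Acadm, a dehydrogenase of medium-chain fatty acids, fell by 0.36 on the log2 scale. Hk2, the hexokinase that starts glycolysis, rose from 143, 119 and 133 CPM to 263, 293 and 256 CPM and is named after its values were seen.

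**Figure D4:**
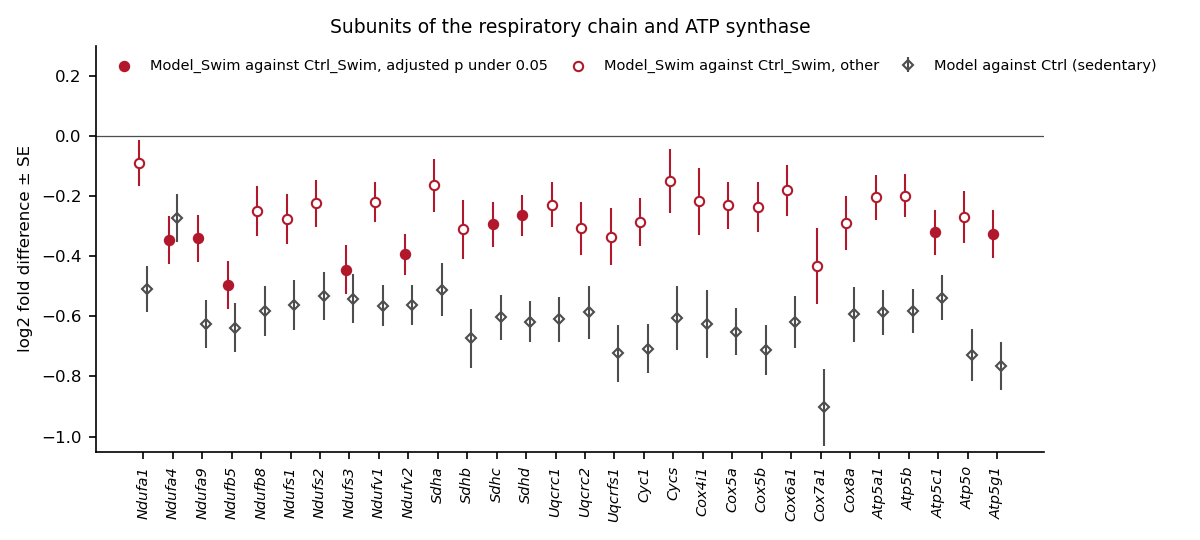
Log2 fold difference with AOM/DSS and its SE for 30 subunits, among swimming mice (red, filled where the adjusted p was under 0.05) and sedentary mice (grey). All red points are below 0, between −0.50 and −0.09, and 29 of the 30 grey points lie lower than the red point of the same gene.

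Lipid and iron genes differed in single members. Scd1, a desaturase that makes monounsaturated fatty acids, was at 76.7, 68.2 and 159 CPM and at 377, 534 and 334 CPM, a log2 fold change of 2.04 ± 0.50 (adjusted p = 0.0426). Adipocytes also express Scd1, and the 16 listed adipocyte genes summed to 571 to 803 CPM in Ctrl_Swim and 1171 to 1351 CPM in Model_Swim. All 16 had a higher mean in Model_Swim, 10 without overlap (15.9% of all genes), among them the fat cell hormone gene Adipoq at 3.23, 1.65 and 3.99 CPM against 25, 7.99 and 17.5 CPM, and Scd1 alone was called. The part of adhering fat in the Scd1 value was not tested. Steap4, a metalloreductase, rose from 11.7 ± 4.26 to 39.4 ± 11.3 CPM. Tfrc, the transferrin receptor, was at 406, 350 and 317 CPM and at 213, 265 and 222 CPM, without overlap, and fell by 0.61 ± 0.14 on the log2 scale (adjusted p = 0.0307).

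The 12 genes called lower were spread over unrelated functions. Pcdh17, a protocadherin, was at 19.7, 26.3 and 24.1 CPM and at 10.8, 8.43 and 10.1 CPM, a log2 fold change of −1.26 ± 0.20 (adjusted p = 0.00837), and was the only one kept with any of the 6 mice left out. Cps1, the mitochondrial enzyme that starts the urea cycle, was at 43.4, 31.7 and 91.4 CPM and at 12.9, 14.6 and 14.7 CPM, where the treated mice were nearly equal and the controls were not. Its log2 fold change was −1.98 ± 0.50 (adjusted p = 0.0465). Hba-a1, a hemoglobin chain that shares reads with its paralog Hba-a2, fell by 2.22 on the log2 scale, with the controls at 12.1, 53.6 and 36.3 CPM. Hbb-bs, which red blood cells express as well, was at 27.6, 120 and 87.2 CPM against 19.5, 16.4 and 22.9 CPM (adjusted p = 0.066). The others were Pbld1, Colgalt2, Ccdc92b, Cys1, Inmt, Cdh19, Fbp1, Stk26 and Tspan33, with log2 fold changes from −1.38 to −1.01. Cdh19 is a cadherin of glia, and 11 of 18 enteric neuron and glia genes were lower without overlap (16.5% of all genes), with a median log2 fold change of −0.48, although only Snap25, a protein of synaptic vesicle fusion, fell at an adjusted p under 0.05 (26.0 ± 2.10 and 15.3 ± 1.29 CPM, adjusted p = 0.0443).

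The study pooled genes that differed in comparisons between groups and then selected among them by expression patterns over all 4 groups. Its COX-2 result is protein staining. The RNA values here compare Model_Swim with Ctrl_Swim alone, which is a different comparison. Of the 7 genes that the study's text singles out, Tfrc fell as given above and Ptges, a prostaglandin E synthase, rose below 2-fold from 8.39 ± 1.12 to 13.7 ± 0.86 CPM (adjusted p = 0.0495). Ptgs2, the inducible cyclooxygenase COX-2, was at 6.52, 6.01 and 3.32 CPM in Ctrl_Swim and at 10.2, 10.6 and 10.2 CPM in Model_Swim. The groups did not overlap, but the log2 fold change of 0.97 ± 0.27 did not pass (adjusted p = 0.0636). Cldn15, a claudin that forms pores for cations, was at 234, 210 and 204 CPM against 159, 146 and 159 CPM (adjusted p = 0.103). Fzd9, a Wnt receptor, Pla2g4f, a phospholipase A2, and Ptger2, a prostaglandin E receptor, had log2 fold changes of −0.66 ± 0.41, 0.53 ± 0.45 and −0.10 ± 0.23 and did not pass. Of the 19 prostaglandin pathway genes tested none was called, and Ptger4, another prostaglandin E receptor, rose from 31.8 ± 2.05 to 45.6 ± 4.87 CPM.

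Clock genes differed in both directions. Npas2, which encodes a partner of the clock activator Arntl, rose from 7.86 ± 0.59 to 16.8 ± 2.10 CPM, and Nfil3, a repressor under clock control, rose from 2.53 ± 1.36 to 5.97 ± 0.27 CPM. Arntl itself rose by 0.98 ± 0.19 on the log2 scale. Per3 and Tef fell by 0.54 and 0.50 on the log2 scale, so that of 19 genes 2 were called higher and none lower.

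The sedentary mice gave values from separate animals for the called genes. In this comparison of Model with Ctrl, 961 genes (6.21%) were called higher and 189 (1.22%) lower, 1150 (7.43%) in all. Of the 143 genes higher among swimmers, 111 were also called higher among sedentary mice, 77.6% of the 143 and 11.6% of the 961. The log2 fold change had the same sign for 140 of the 143, and its median over them was 1.60 among swimmers and 1.66 among sedentary mice. Of the 12 lower genes, 2 were also called lower, 11 had the same sign and the sedentary median was −0.43, against −1.14 among swimmers. The test of the difference between the log2 fold changes, the interaction of AOM/DSS with swimming, passed the adjusted threshold for no gene in edgeR (smallest adjusted p = 0.0547). At an unadjusted p under 0.05 it gave 2947 genes (19%), and DESeq2 gave 213 genes past the cutoffs. Without Model 1 and Model 3, the libraries with pancreatic RNA, Model 2 is alone in its group, so that interaction count is not given. Among the 155 called genes 20 had an unadjusted interaction p under 0.05, with a smallest adjusted p of 0.0894, held by Sprr2a3, whose reads are shared with near-identical Sprr2a copies. In the B cell list 16 of 17 genes had an unadjusted interaction p under 0.05, the median log2 fold change being 1.37 among sedentary mice, and for oxidative phosphorylation 25 of 30 did, with a sedentary median of −0.61.

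**Figure D5:**
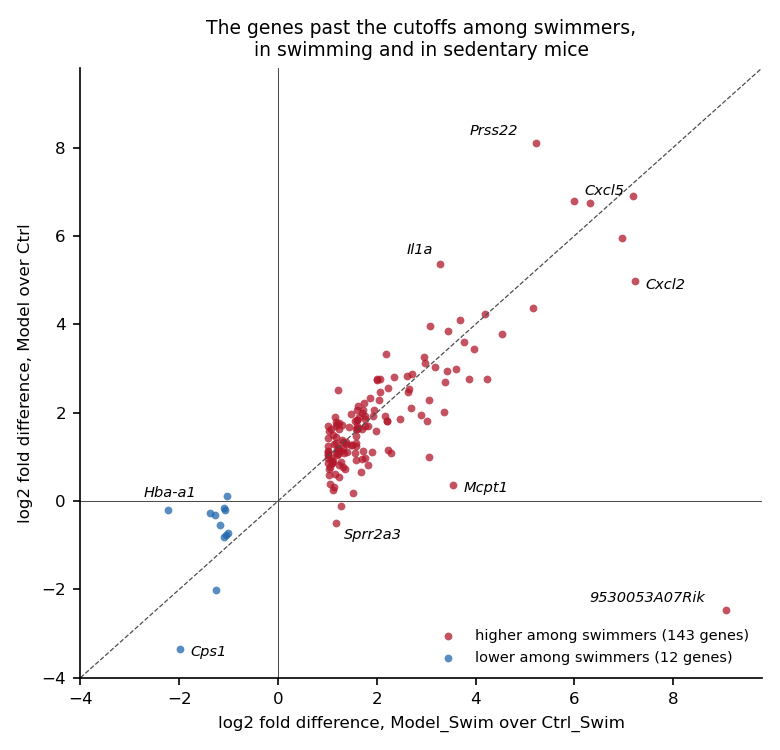
Log2 fold difference of the 155 called genes among swimming mice (horizontal) and sedentary mice (vertical), with the line of equal values dashed. Of the 143 higher genes, 140 are above 0 on both axes, and Mcpt1 lies far below the line.

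The calls depended on single mice to different degrees. Of the 143 higher genes, the highest Model_Swim value belonged to Model_Swim 3 for 75, to Model_Swim 2 for 40 and to Model_Swim 1 for 28, and Model_Swim 1 was the lowest of its group for 93. Of the 155 called genes, 34 were called in each fit that left out 1 of the 6 swimmers, 33 of them higher, and 44 were called in none of these fits. The latter include Areg, Ccdc92b, Colgalt2, Cps1, Fbp1, Fos, Il1a, Il1r2, Lcn2, Mcpt1, Mmp7, Notum, Pbld1 and Wif1 among the genes named above. The total was 71, 52 and 103 without Ctrl_Swim 2, 3 and 4 and 91, 50 and 46 without Model_Swim 1, 2 and 3, and no called gene changed sign. Leaving out a sedentary mouse moved the total beyond 1.5 times only for Model 3, without which it was 274. The 34 genes included Grem1, Duox2, Duoxa2, Plaur, Il1b, Nos2, Mmp3, Mmp10, Cd68, Gpnmb, Lox, Selp, Ereg, Egr1, Dusp1 and Tpsb2. Also among them was Khdc1a, at 0.110, 0.053 and 0.051 CPM against 9.8, 12.1 and 7.10 CPM. The largest fitted change of all, of the gene model 9530053A07Rik, came from 1 library, at 695 CPM in Model_Swim 3 against 0.936 and 2.18 CPM in the other Model_Swim mice. With 3 mice in each group an exact permutation test of a single gene cannot give a two-sided p below 0.1, so these calls rest on the spread shared across genes and groups.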

How the data were processed

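Colorectal RNA was sequenced from 12 mice with poly(A)-selected, stranded libraries. Reads were trimmed with Trimmomatic, aligned to GRCm38.p6 with HISAT2 and counted per gene with HTSeq-count by the authors, who deposited raw counts per gene for each mouse. The authors also deposited FPKM values from Cufflinks, used here only for an alternative. Versions and the annotation release are not given in the sources used here. RNA extraction is given differently in the labels and the study's methods. Of 18514 genes listed, 115 had no count. Counts were tested with edgeR (4.0.16, R 4.3.3; filterByExpr with a minimum count of 10, TMM, quasi-likelihood F test, two-sided) in 1 fit of 4 groups and 12 mice, and p-values were adjusted by Benjamini-Hochberg over 15484 genes. The SE is the log2 fold change divided by the square root of F. A call needed an adjusted p under 0.05 and more than 2-fold, as in the study. CPM use TMM-scaled totals. Named genes were the 15 largest increases and the 12 decreases past the cutoffs without overlap at 1 CPM or more (gene models, pseudogenes and receptor segments left out), up to 6 called and 3 abundant genes of each of 40 lists, and 7 genes of the study's text, and others were chosen after their values were seen. Of 785 listed genes 755 were tested. Members, lists and rules were chosen with earlier results of these data known. Alternatives used DESeq2 (1.42.0), limma (3.58.1) on log2(FPKM + 1) or log2(FPKM + 0.1), other filters, covariates and samples. The edgeR script was tested on simulated counts. Intervals and limits of detection cover counting error only. Replicates are separate mice. Promoters came from RefSeq (GRCm38.p6), which held 99 of the 143 higher genes, and coordinates from RefSeq for 151 of the 155 called genes. 12 symbols in the deposited table had been turned into dates and are not named.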

Additional observations from a re-analysis of the deposited data

Results flagged for a closer look

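Nr1d1, a repressor of the circadian clock, was singled out because its AOM/DSS difference went in opposite directions in swimming and sedentary mice, without overlap in either. It was at 153, 141 and 128 CPM in Ctrl_Swim and 177, 165 and 170 CPM in Model_Swim, and at 130, 135 and 156 CPM in Ctrl and 44.2, 57.5 and 76.3 CPM in Model. The log2 fold change was 0.28 ± 0.16 among swimmers (adjusted p = 0.325) and −1.25 among sedentary mice (adjusted p = 0.000641). The difference between them was tested and was 1.52 on the log2 scale, with an unadjusted p of 2.67e-05 and an adjusted p of 0.0688 by edgeR over all genes, which does not pass. The hour of death of each mouse is not given in the sources used here.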

How the results depend on the processing

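The number of called genes (155, with 143 higher and 12 lower) was 274, 241 and 33 with DESeq2, 272, 240 and 32 when only the 6 swimmers were fitted, and 324, 281 and 43 without Model 1 and Model 3. It was 802, 540 and 262 by adjusted p alone. With limma on log2(FPKM + 1) it was 75, 72 and 3 with a minimum mean FPKM of 0.5 and 59, 56 and 3 without a filter. The lower genes numbered 25 with the squamous covariate, which was chosen after seeing the data. Correlations between Ctrl_Swim and Model_Swim mice were taken on log2 CPM after the mean of each group was subtracted for each gene. Mice sharing replicate number 2 or 3 had values of −0.029 and 0.219, against −0.487 to 0.451 for mice with unlike numbers. With 3 mice a group these values cannot tell whether the numbers pair the mice. A fit with the replicate block left 18 called genes, 17 higher and 1 lower, 17 of them among the 155. With 1 mouse of the 12 left out, the totals ran from 46 to 274, the higher genes from 45 to 248, the lower genes from 1 to 26 and the interaction calls from 0 to 248. Interaction calls numbered 0 in the fit as reported, 213 with DESeq2, 249 without Model 1 and Model 3 and 1 with a term for libraries with traces of pancreatic genes. The median log2 fold change of all genes moved by less than 0.1 in every setting, and no named gene turned its direction while called. The cause of these shifts was not tested. Precision was limited by 3 mice a group and, for genes near 1 CPM, by low counts.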
